A study of Homo sapiens with 16 samples.

Results

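The S100 genes encode small calcium-binding proteins, and 10 of them, S100A2, S100A4, S100A6, S100A7, S100A8, S100A9, S100A10, S100A11, S100A14 and S100A16, were followed over time in MCF10A cells, a nontransformed human breast epithelial line. They were chosen by symbol, every probe kept separate, and each symbol had 1 probe, so that 10 of the 20589 rows of the array data are described here. Cells in medium with EGF, insulin and hydrocortisone received CP724,714, a small molecule inhibitor of the HER2 kinase, at 1 µM, and RNA was taken from parallel cultures every 3 hours up to 45 hours. There were 16 Illumina human Ref8v2 arrays, 1 for each time point, and the sample of 0 hours was not treated. The comparisons ask whether expression changed with time after the inhibitor was added. No series of untreated cells was analysed here, and cells received fresh medium together with the inhibitor, so that effects of the inhibitor, of fresh medium and of growing cell density cannot be told apart. The cells come from 1 line, and no time point has a second array, so that all p-values measure the spread between time points.

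S100 proteins bind calcium through a pair of EF-hand motifs, mostly as dimers, and then bind target proteins such as annexins, cytoskeletal proteins and p53. S100A8 and S100A9 together form calprotectin, which sequesters metal ions and is abundant in neutrophils and monocytes, and which epithelial cells produce in inflamed or stressed skin. S100A7 (psoriasin) is an epithelial alarmin, S100A4 is linked to motility through non-muscle myosin, and S100A10 (p11) forms a complex with annexin A2. S100A2 is expressed in basal epithelial cells and is a known target of p53 family factors.

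The 10 genes all lie on chromosome 1 in the RefSeq gene table, mostly within the cluster that also holds genes of the cornified epidermis. S100A9 and S100A8 flank S100A12, S100A10 and S100A11 are neighbors, and S100A2, S100A16 and S100A14 follow each other. The 100 bases before the start site are shown for S100A8 and S100A9, because they encode the 2 subunits of calprotectin, and for S100A2, because it had the largest difference from 0 to 3 hours among the members. The sequences are those of RefSeq on GRCh38.p14, read 5′ to 3′ on the strand of the gene, and capitals mark the TATA box TATAAA, searched on that strand, or the AP-1 motif TGANTCA, searched on both strands. Of the start sites listed for S100A8 the one preceded by a TATA box is shown, and of those for S100A2 the one preceded by an AP-1 motif.
S100A8 (chr1:153391074-153391173, minus strand): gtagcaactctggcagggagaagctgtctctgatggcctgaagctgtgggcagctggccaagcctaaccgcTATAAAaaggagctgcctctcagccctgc
S100A9 (chr1:153357754-153357853, plus strand): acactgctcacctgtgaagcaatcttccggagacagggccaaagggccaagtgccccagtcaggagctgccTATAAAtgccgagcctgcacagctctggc
S100A2 (chr1:153565845-153565944, minus strand): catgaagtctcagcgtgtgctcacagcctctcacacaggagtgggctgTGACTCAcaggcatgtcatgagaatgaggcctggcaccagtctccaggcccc
The TATA box lay 29 to 24 bases before the start in both S100A8 and S100A9. It was also found at S100A4 (31 to 26 bases before) and at S100A7 (28 to 23 bases before), so that 4 of the 14 listed windows of the 10 genes held it, while 3.51% of all 35116 promoters of this length did. The AP-1 motif was found at S100A2 alone among the 10 (2.75% of all promoters). The C/EBP motif TTGCNNAA, on either strand, was found at S100A11 alone (3.20% of all promoters), and the STAT motif TTCNNNGAA at none of the 10 (2.31% of all promoters). These are matches of letters in the windows searched, and binding was not measured.

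Of the 10 probes, 9 were above the array's background on all 16 arrays, and S100A7 was above it at 42 and 45 hours. A probe was called above background at a detection p under 0.05, the chance of such an intensity among the negative control beads of that array. Levels are given as log2 of the background-corrected and quantile normalized intensity, and no probe's level is compared with another's, since probes differ in how well they bind. Across the arrays the median deposited intensity was 210 to 254, 50.1% to 52.9% of rows were above background, and the inferred level of the negative controls was 188 to 199 on the arrays of 0 to 21 hours and 166 to 185 on those of 24 to 45 hours. The labels name no chip or batch, and a batch that begins at 24 hours cannot be told apart from time. Of 10 basal epithelial markers 7 were above background on all 16 arrays, among them KRT5, a keratin of basal epithelium, but KRT14, its usual partner, was above it on 1 array. Of 10 luminal markers 6 were above background on all 16 arrays (KRT8, KRT18, KRT19, MUC1, FOXA1 and EPCAM), and the hormone receptors ESR1 and PGR were above it on none.

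Time-dependent expression, tested with limma on a smooth curve of time, was called at an adjusted p under 0.05 for 6 of the 9 tested S100 probes, beside 54.6% of all 11957 tested probes. The 6 were S100A2 (adjusted p = 5.95e-06), S100A4 (0.00161), S100A6 (0.0200), S100A8 (3.10e-07), S100A9 (0.001005) and S100A14 (1.74e-05). S100A10 (0.419), S100A11 (0.323) and S100A16 (0.374) were not called. The ratio of the highest to the lowest level over the series was 2.72-fold for S100A8, 2.50-fold for S100A2, 2.18-fold for S100A9, 1.71-fold for S100A16, 1.67-fold for S100A14, 1.66-fold for S100A4, 1.26-fold for S100A11, 1.19-fold for S100A6 and 1.10-fold for S100A10. The genes differed in when they moved, as the panels of single probes show.

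**Figure D1:**
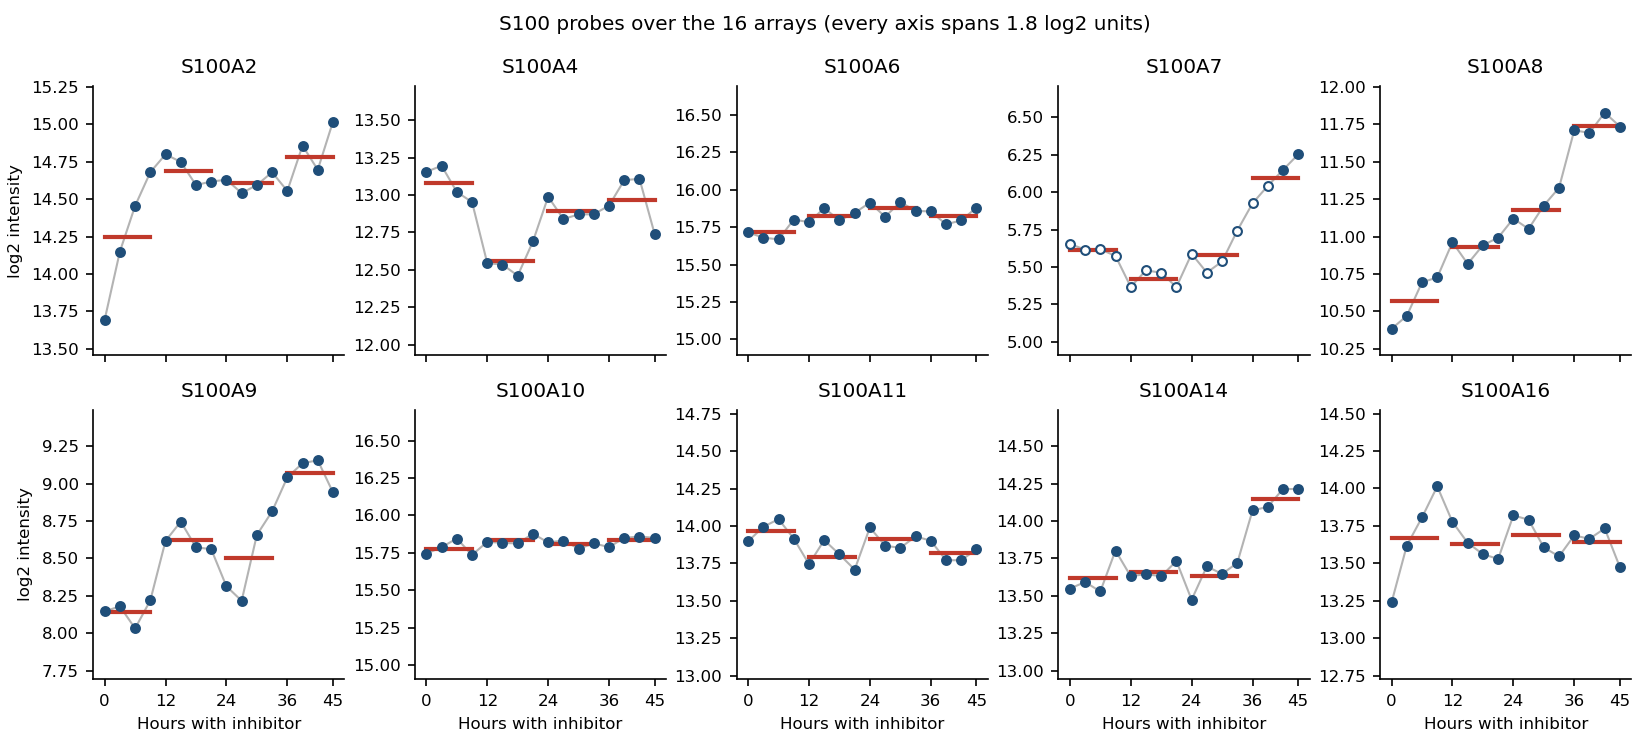
Level of each of the 10 S100 probes (log2 intensity, background corrected and quantile normalized) against hours with the inhibitor, 1 array for each point. Filled points are above background, open points are not, red bars are means of 4 consecutive time points, and every axis spans the same range. S100A8 is lowest at 0 hours and highest at 36 to 45 hours, S100A2 rises between 0 and 12 hours, S100A4 is low from 12 to 18 hours, S100A14 steps up at 36 hours and S100A7 is above background at 42 and 45 hours.

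For tests between stages, the arrays were grouped into 4 windows of 4 time points, 0 to 9, 12 to 21, 24 to 33 and 36 to 45 hours, and each window's spread (SD, n = 4) therefore also holds the change within it. From the first to the last window 5 of the 9 tested S100 probes rose (16.2% of all tested probes rose), none fell (15.0% of all fell), and 4 were not called. S100A8 rose 2.25-fold, S100A9 1.90-fold, S100A2 1.45-fold, S100A14 1.44-fold and S100A6 1.08-fold. The median difference of the 9 was 0.11 log2 units, beside -0.02 over all tested probes. The split of calls over all probes depended on the scaling: 51.8% of the calls were rises with quantile normalization, 73.1% with median scaling and 35.3% with the deposited intensities.

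Between the first windows (12 to 21 against 0 to 9 hours), 4 of 9 rose, namely S100A2, S100A6, S100A8 and S100A9, while 15.1% of all tested probes rose. S100A4 and S100A11 fell, while 14.4% of all tested probes fell. The median difference of the 9 was 0.05 log2 units, beside -6e-04 over all tested probes. Rises made up 51.2% of all calls there, but 73.2% with median scaling and 60.7% with the deposited intensities. From 12 to 21 to 24 to 33 hours no S100 probe was called, and over all tested probes 0% rose and 0.0251% fell, with limma. At an unadjusted p under 0.05, 3 S100 probes differed there (S100A4, S100A8 and S100A11), as did 308 higher and 277 lower probes of all tested. From 24 to 33 to 36 to 45 hours S100A8, S100A9 and S100A14 rose, 3 of 9, while 19.3% of all tested probes rose, and no member was called lower, while 18.7% of all were. Rises were 50.8% of all calls in that comparison, 36.9% with median scaling and 31.8% with the deposited intensities.

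**Figure D2:**
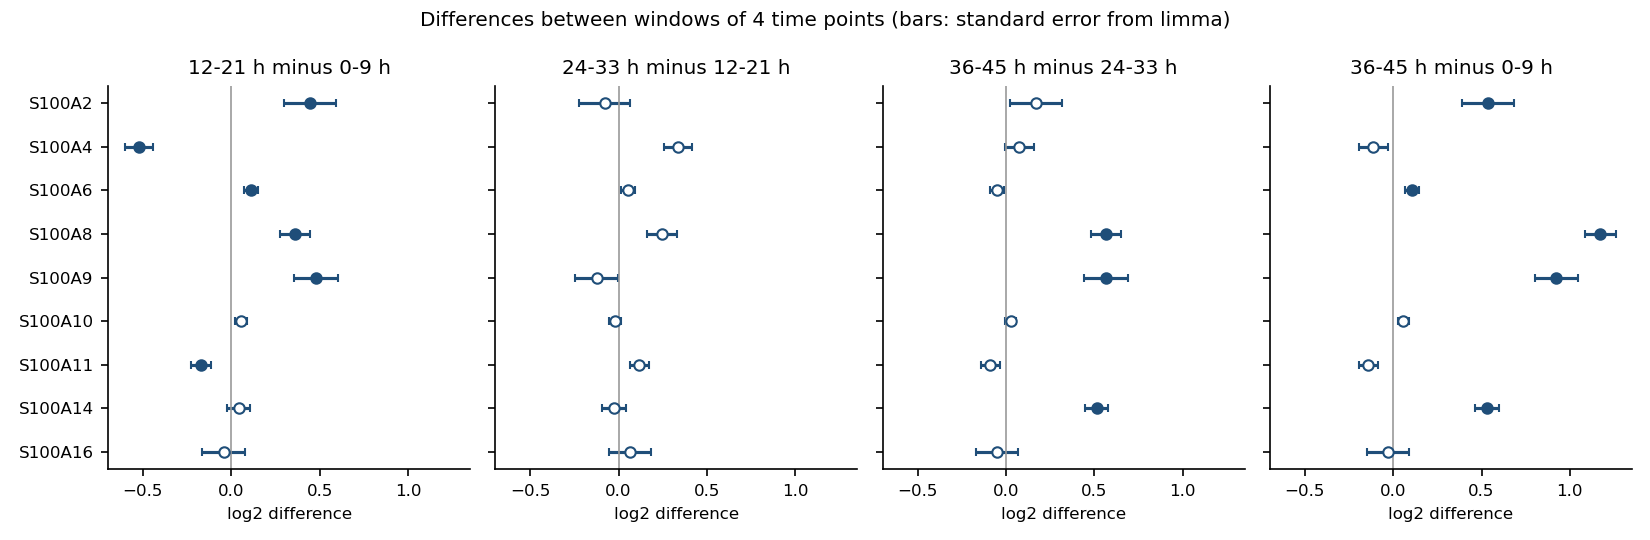
Difference in log2 intensity between windows of 4 time points for the 9 tested S100 probes, later minus earlier window, with the standard error from limma as bars. Filled points have an adjusted p under 0.05. S100A8 and S100A9 have filled points to the right of 0 in every panel but that of 24-33 minus 12-21 hours. S100A14 has them in the last 2 panels, and S100A2 and S100A6 have them in the first and last panels. S100A4 and S100A11 each have one to the left at 12 to 21 hours.

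Both calprotectin subunits rose between the first and second windows and again between the last 2. S100A8 measured 10.38, 10.47, 10.69 and 10.73 log2 units at 0, 3, 6 and 9 hours and 10.96, 10.82, 10.94 and 10.99 at 12, 15, 18 and 21 hours. It then measured 11.12, 11.05, 11.21 and 11.33 at 24, 27, 30 and 33 hours and 11.71, 11.69, 11.83 and 11.74 at 36, 39, 42 and 45 hours. No window overlapped the next, and the level of 0 hours was the lowest of the series. The deposited intensity went from 1401 at 0 hours to 3612 at 42 hours, a 2.58-fold difference without any normalization. The mean was 10.57 ± 0.17 (SD, n = 4) in the first window and 11.74 ± 0.06 in the last, a difference of 1.17 log2 units (SE 0.09, limma adjusted p = 6.44e-08). It rose by 0.36 (SE 0.09, limma adjusted p = 0.00430) from the first to the second window and by 0.57 (SE 0.09, limma adjusted p = 5.73e-05) from the third to the last. The difference of 0.25 between the middle windows was not called (limma adjusted p = 0.760). The largest step between neighboring time points was that from 33 to 36 hours, 0.38 log2 units or 1.31-fold.

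S100A9, the partner of S100A8, measured 8.14, 8.18, 8.03 and 8.22 log2 units at 0 to 9 hours and 8.62, 8.75, 8.57 and 8.56 at 12 to 21 hours. It measured 8.31, 8.22, 8.66 and 8.81 at 24 to 33 hours and 9.04, 9.14, 9.15 and 8.94 at 36 to 45 hours. The first, second and last windows did not overlap each other, but at 24 and 27 hours the level was back at or near that of 9 hours, which S100A8 did not show. Its largest step was 0.44 log2 units between 27 and 30 hours. The mean rose from 8.14 ± 0.08 (SD, n = 4) to 9.07 ± 0.10, by 0.92 log2 units (SE 0.12, limma adjusted p = 2.59e-05). The rise was 0.48 (SE 0.12, limma adjusted p = 0.00725) from the first to the second window and 0.57 (SE 0.12, limma adjusted p = 0.00145) from the third to the last. The deposited intensity of S100A9 was 439 at 6 hours and 752 at 36 hours, and the ratio of the 2, 1.71-fold, is smaller than the 2.18-fold after background correction.

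Since S100A8 and S100A9 are abundant in myeloid cells, markers of leukocytes and myeloid cells were read beside them. Of 10 such markers 5 were above background on no array, among them ITGAM, MPO, CD3D and FCER1G, and PTPRC (CD45) was above it on 5 of 16 arrays. CSF1R and CD68 were above background on all arrays, and CD14 on 12. Of the 4 markers tested these 3 were called higher in the last than in the first window (16.2% of all tested probes were), and PTPRC was not. The call of CD14 is a description only. The rise was 1.38-fold for CSF1R (limma adjusted p = 0.00698) and 1.61-fold for CD68 (limma adjusted p = 0.00267). CD14, a coreceptor for bacterial lipopolysaccharide, was above background on none of the first 4 arrays and on all of the last 4, and was at least 2.74-fold higher in the last. No p is given for it, since its first window lay within the background. The summed level of the 10 markers on the linear scale was 1944 to 2152 at 0 to 9 hours, 1905 to 2035 at 12 to 21, 1770 to 2033 at 24 to 33 and 2773 to 3083 at 36 to 45 hours. This sum adds probes that differ in how well they bind, and it holds the 5 that were above background on no array. Its brightest probes were CSF1R (9.78 and 10.24 log2 units in the first and last windows) and CD68 (9.47 and 10.16). The part of these markers in the rise of S100A8 and S100A9 was not tested. In such bulk RNA a change in the share of cells and a change in RNA per cell cannot be told apart.

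S100A14, a membrane-associated member of the family expressed in epithelia, lay between 13.47 and 13.80 up to 33 hours and then stepped up. It measured 13.55, 13.59, 13.53 and 13.80 log2 units at 0 to 9 hours and 13.63, 13.65, 13.63 and 13.73 at 12 to 21 hours. It measured 13.47, 13.70, 13.65 and 13.72 at 24 to 33 hours and 14.07, 14.09, 14.21 and 14.21 at 36 to 45 hours. All 4 last arrays lay above all 12 earlier ones, and the step from 33 to 36 hours, 0.35 log2 units, was the largest. The rise from the third to the last window was 0.51 log2 units (SE 0.07, limma adjusted p = 1.15e-05), and that from the first to the last 0.53 (SE 0.07, limma adjusted p = 1.33e-05). The difference between the first and second window was 0.04 (SE 0.07, limma adjusted p = 0.682), and that between the second and the third was -0.03 (SE 0.07, limma adjusted p = 1.00). S100A8 and S100A14 both had their largest step between 33 and 36 hours, which was also where the median size of the step over all tested probes was largest (0.25 log2 units, beside 0.12 to 0.24 at the other steps).

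Over the 16 arrays, r of the log2 levels was 0.88 between S100A8 and S100A9 (rho 0.85), 0.84 between S100A8 and S100A14 (rho 0.72) and 0.80 between S100A9 and S100A14 (rho 0.75). These 3 were the highest of the 36 pairs of tested members, and the lowest was -0.56, between S100A9 and S100A11. With the deposited intensities the 3 values were 0.85, 0.89 and 0.80, so that S100A8 and S100A14 were then the most alike, and S100A2 and S100A8 also reached 0.80. The pairs share the arrays and the order of time, and no p is given. The arrays of 24 to 45 hours differ from the earlier ones in the level of the negative controls. The difference of the second from the first window and that of the last from the third were therefore also added up. This leaves out the whole difference between the middle windows (0.25 for S100A8, -0.12 for S100A9 and -0.03 for S100A14), not only the step from 21 to 24 hours. The sum was 0.93 log2 units for S100A8 (limma adjusted p = 0.000113), 1.05 for S100A9 (0.000782) and 0.56 for S100A14 (0.000846).

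**Figure D3:**
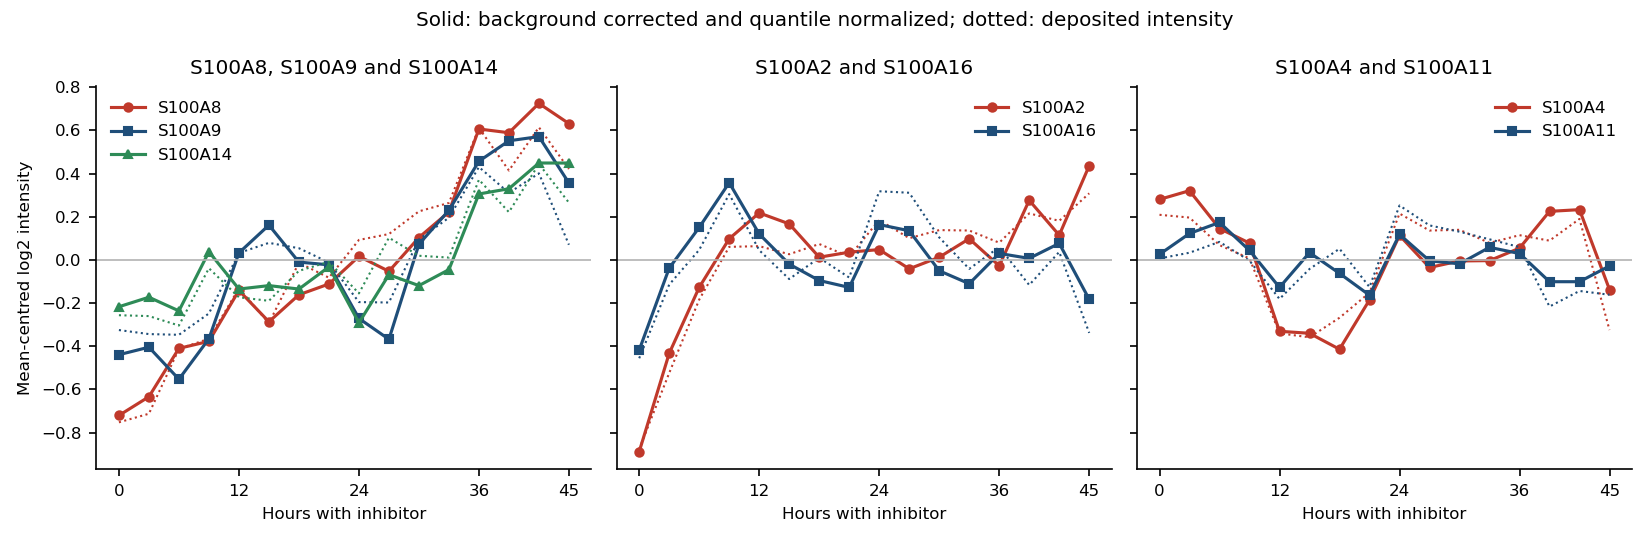
Mean-centred log2 intensity against hours with the inhibitor for 7 S100 probes, grouped by the shape of their course after it was seen. Solid lines with points are background corrected and quantile normalized values, and dotted lines are the deposited intensities on the log2 scale. S100A8, S100A9 and S100A14 have their highest level within 36 to 45 hours on both scales. The deposited intensity of S100A9 at 45 hours (586) lies below that at 33 hours (639). S100A2 and S100A16 both start from their lowest level at 0 hours.

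S100A7 was at the detection limit. Its deposited intensities were 205, 198, 201 and 200 at 0 to 9 hours, 173, 185, 179 and 169 at 12 to 21 hours, 177, 171, 173 and 201 at 24 to 33 hours and 217, 211, 223 and 211 at 36 to 45 hours. The detection p was 0.0777 at 36 hours, 0.0650 at 39 hours, 0.0395 at 42 hours and 0.0367 at 45 hours, and lay between 0.181 and 0.730 on the earlier arrays. The normalized level of the last window, 6.09 log2 units, does not exceed the level at which a probe would count as measured in the first, 6.14, so that no fold change is given, and with 2 arrays above background the probe was not tested. Without the filter on dim probes, it differed by 0.48 log2 units between the first and last windows (SE 0.08). That value rests on intensities mostly within the background, so no p is given.

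S100A2 rose over the first 12 hours. It measured 13.69, 14.15, 14.45 and 14.68 log2 units at 0, 3, 6 and 9 hours and 14.80, 14.75, 14.59 and 14.62 at 12 to 21 hours. It measured 14.63, 14.54, 14.59 and 14.68 at 24 to 33 hours and 14.55, 14.86, 14.70 and 15.02 at 36 to 45 hours. From 3 to 12 hours each of 4 arrays was above the one before it, and the level at 12 hours was 2.15-fold that of 0 hours, or 1.92-fold in deposited intensity (13260 and 25427). From 12 to 45 hours it differed by a further 1.16-fold. The largest step, 0.46 log2 units, was that from 0 to 3 hours, which includes the addition of the inhibitor and of fresh medium. Because the rise falls within the first window, that window has a large spread (14.24 ± 0.43, SD, n = 4), and the differences between windows understate the range. The last window was higher by 0.54 log2 units (SE 0.15, limma adjusted p = 0.00915) and the second by 0.45 (SE 0.15, limma adjusted p = 0.0280), and both windows overlapped the first. The call of the second window was lost without the array of 0 hours (0.26 log2 units, limma adjusted p = 0.0704), and also without that of 3, 12 or 15 hours (limma adjusted p = 0.0733, 0.0751 and 0.0675). That call was lost too with cyclic loess (0.35 log2 units, limma adjusted p = 0.0634) and with only the 8 arrays compared in the fit (limma adjusted p = 0.0996). The difference of the last window was 0.35 without the array of 0 hours (limma adjusted p = 0.0142). Its call was lost when the difference between the middle windows was left out (0.62 log2 units, limma adjusted p = 0.0562) and when the 8 arrays compared were fitted alone (limma adjusted p = 0.0639).

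S100A16, the neighbor of S100A2 on the chromosome, was also lowest at 0 hours, and was highest at 9 hours. It measured 13.24, 13.62, 13.81 and 14.01 log2 units at 0 to 9 hours and 13.78, 13.64, 13.56 and 13.53 at 12 to 21 hours. It measured 13.82, 13.79, 13.61 and 13.55 at 24 to 33 hours and 13.69, 13.66, 13.73 and 13.47 at 36 to 45 hours. The level at 9 hours was 1.71-fold that at 0 hours, and that at 45 hours was 1.45-fold below that at 9 hours. The 4 windows overlapped, and the last differed from the first by -0.03 log2 units (SE 0.12, limma adjusted p = 0.873). A curve with 3 degrees of freedom did not call it. With 5 it was called (limma adjusted p = 0.00478), as it was with median scaling (0.0293) and with the deposited intensities (0.0363).

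S100A4, which binds non-muscle myosin, was low from 12 to 21 hours. It measured 13.15, 13.20, 13.02 and 12.95 log2 units at 0 to 9 hours and 12.54, 12.53, 12.46 and 12.69 at 12 to 21 hours. It measured 12.99, 12.84, 12.87 and 12.87 at 24 to 33 hours and 12.93, 13.10, 13.11 and 12.74 at 36 to 45 hours. The arrays of 12 to 21 hours lay below those of 0 to 9 and those of 24 to 33 hours with no overlap, and the largest step was the drop of -0.41 log2 units from 9 to 12 hours. The second window fell by 0.52 log2 units (SE 0.08, limma adjusted p = 0.000149), or 1.44-fold. The higher level of the third window, by 0.33 log2 units (SE 0.08, unadjusted p = 0.000632 with limma), had an adjusted p of 0.304. This difference was called when the 8 arrays of those windows were fitted alone (adjusted p = 0.0496) and with median scaling (0.46 log2 units, adjusted p = 0.0359). It spans the change in negative control level at 24 hours. In deposited intensity the array of 21 hours (6919) lay below that of 24 hours (8921). The last window differed from the first by -0.11 (SE 0.08, limma adjusted p = 0.308). When the difference of 0.33 between the middle windows was left out, the value was -0.45 (limma adjusted p = 0.0146).

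S100A11, which binds annexin A1, took a range of 13.71 (21 hours) to 14.05 (6 hours). The means of its windows were 13.96 ± 0.07, 13.79 ± 0.09, 13.91 ± 0.06 and 13.82 ± 0.06 log2 units (SD, n = 4). It fell by 0.17 log2 units in the second window (SE 0.05, limma adjusted p = 0.0239), with the windows overlapping. That call was lost without the array of 3, 6, 12 or 21 hours (limma adjusted p = 0.0635, 0.0739, 0.0658 and 0.0766), with median scaling (-0.05, limma adjusted p = 0.630) and with the deposited intensities (-0.10, limma adjusted p = 0.276). In the last window the difference from the first was -0.14 (SE 0.05, limma adjusted p = 0.0550), and, without the difference between the middle windows, -0.26 (limma adjusted p = 0.0315). From the third to the last window it was -0.09 (SE 0.05, limma adjusted p = 0.217), and was called lower with median scaling (-0.25, limma adjusted p = 0.00526) and with the deposited intensities (-0.27, limma adjusted p = 0.00312).

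S100A6 (calcyclin) and S100A10 lay near the top of the scale of the arrays. The deposited intensity of S100A6 was 51669 to 63506, 77.5% to 94.5% of the brightest row of the same array, and that of S100A10 was 53829 to 60724, 80.6% to 91.8%. S100A6 was 15.72 ± 0.06 log2 units in the first window, 15.83 ± 0.04 in the second, 15.88 ± 0.05 in the third and 15.83 ± 0.05 in the last (SD, n = 4). Its rises of 0.11 log2 units in the second (SE 0.04, limma adjusted p = 0.0451) and in the last window (SE 0.04, limma adjusted p = 0.0435) were small, with overlapping windows. The call of the second window held under 8 of 25 other settings, and that of the last under 14 of 27. The difference was 0.02 in the second window with cyclic loess (limma adjusted p = 0.758), and 0.06 in the last without the difference between the middle windows (limma adjusted p = 0.562). S100A10 was 15.78 ± 0.05 in the first window and 15.84 ± 0.03 in the last, a difference of 0.06 (SE 0.03, limma adjusted p = 0.189). With median scaling that difference was 0.21 (limma adjusted p = 0.00765), with cyclic loess 0.14 (0.0252) and with the deposited intensities 0.10 (0.0322). How far the scale is compressed at such brightness was not tested.

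The annexin that S100A10 binds fell. ANXA2, a phospholipid-binding protein of the membrane skeleton, went from 12.60 ± 0.17 to 11.48 ± 0.16 log2 units (SD, n = 4) between the first and last windows and so fell by 1.12 (SE 0.12, limma adjusted p = 3.49e-06) or 2.17-fold. Of 21 genes for partners and receptors of S100 proteins 18 were tested. Of these 12 were called over time, 6 rose and 3 fell in the last window (54.6%, 16.2% and 15.0% of all tested probes). Their median difference was 0.06 log2 units beside -0.02 over all tested probes. CTSB, the lysosomal protease cathepsin B, rose 1.82-fold (0.86 log2 units, SE 0.11, limma adjusted p = 2.05e-05). CACYBP, the calcyclin-binding protein named for its binding of S100A6, fell by 0.59 log2 units (SE 0.14, limma adjusted p = 0.00484), after having risen by 0.47 (limma adjusted p = 0.0205) in the second window.

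Of 11 other S100 genes 10 were on the array, 6 of them above background on no array, among them S100A12, which lies between S100A8 and S100A9. Of the 4 tested, 2 were called over time, 3 rose and none fell in the last window (54.6%, 16.2% and 15.0% of all tested probes). The median difference of the 4 was 0.37 log2 units. S100P, a member that lies outside the chromosome 1 cluster, rose from 9.41 ± 0.11 to 10.11 ± 0.06 log2 units (SD, n = 4), by 0.70 (SE 0.11, limma adjusted p = 0.000135). Between the third and the last window it rose by 1.30 (limma adjusted p = 2.55e-07). S100A13, a member involved in secretion without a signal peptide, has 5 probes that did not move alike. The brightest rose by 0.24 log2 units (SE 0.07, limma adjusted p = 0.00991), one rose by 1.30 (SE 0.16, limma adjusted p = 1.29e-05), and one fell by 1.12 (SE 0.23, limma adjusted p = 0.00131). The last 2 were dim, with mean deposited intensities of 280 and 423 in the first window and 406 and 274 in the last. The inferred level of the negative controls was 166 to 199. The probe that fell was above background on 15 of 16 arrays. The other 2 probes were not called (-0.07 and -0.40 log2 units, limma adjusted p = 0.688 and 0.0517). The remaining rise was that of S100A3 (0.49 log2 units, limma adjusted p = 0.0266), which was not called over time (limma adjusted p = 0.0836).

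The other genes of the epidermal differentiation complex lie in the same part of chromosome 1, and many of them encode proteins of the cornified envelope. They held no gene called higher in the last than in the first window. Of 37 genes 35 were on the array, 20 were above background on no array, and 11 were tested. Of the 11, 3 were called over time, none rose and 5 fell in the last window (54.6%, 16.2% and 15.0% of all tested probes). Their median difference was -0.32 log2 units. SPRR1B and SPRR1A, small proline-rich precursors of the cornified envelope, fell by 0.84 (SE 0.23, limma adjusted p = 0.0112) and by 0.37 (SE 0.10, limma adjusted p = 0.00959). SPRR1A had first fallen by 1.00 (limma adjusted p = 2.81e-06) in the second window, and rose by 0.48 (limma adjusted p = 0.00115) from 24 to 33 to 36 to 45 hours. LCE1B, a late envelope protein, fell by 0.42 (SE 0.15, limma adjusted p = 0.0383) and was above background on 10 of 16 arrays.

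Among 20 epithelial alarmin and antimicrobial genes, of which 15 were tested, 12 were called over time, and 3 rose and 3 fell in the last window. The shares of all tested probes were 54.6%, 16.2% and 15.0%. The median difference of the 15 was 0.05 log2 units. LCN2, the siderophore-binding lipocalin 2, fell 3.22-fold, from 10.37 ± 0.37 to 8.68 ± 0.05 log2 units (SD, n = 4, limma adjusted p = 1.84e-07). IL1A, the cytokine interleukin-1 alpha, was above background on all of the first 4 arrays and on none of the last 4, and was at least 3.10-fold lower there. IL1A, and SAA4 among the genes that rose, passed the filter on dim probes only through the window in which each is high, so that their calls are descriptions and no p is given. DEFB1, the antimicrobial beta-defensin 1, rose by 0.89 log2 units (SE 0.11, limma adjusted p = 1.65e-05). It had first fallen by 0.79 (limma adjusted p = 8.07e-05) in the second window, where S100A8 and S100A9 rose.

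Of 25 transcription factors linked to S100 genes or to epithelial differentiation, 20 were tested, 14 were called over time, and 3 rose and 2 fell in the last window. The shares of all tested probes were 54.6%, 16.2% and 15.0%. The median difference of the 20 was -0.02 log2 units. ELF3, an epithelial ETS factor, rose by 2.17 log2 units (SE 0.49, limma adjusted p = 0.00283) and varied widely in the first window (9.37 ± 1.47, SD, n = 4). FOSL1, a subunit of AP-1, fell by 1.77 (SE 0.29, limma adjusted p = 0.000190). TP63, listed under its older symbol TP73L and the p53 family factor of basal epithelium, was above background on none of the first 4 arrays and on all of the last 4, and was at least 2.55-fold higher there. Its normalized level was also 0.60 log2 units higher in the second window, but the first window lay within the background. No p is therefore given for TP63, and its place among the 3 that rose is a description. The part of TP63 in the course of S100A2 was not tested. Genes near background enter these lists only where at least 3 arrays measured them, so the shares of tested genes that moved are descriptions.

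**Figure D4:**
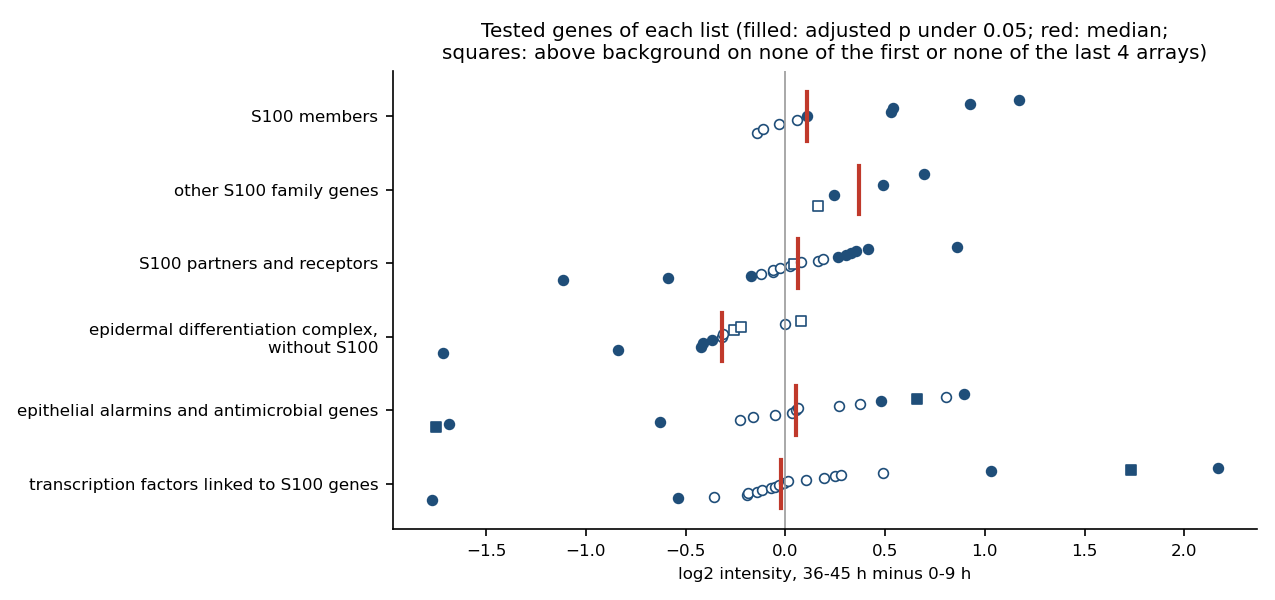
Difference in log2 intensity between 36 to 45 and 0 to 9 hours for each tested gene, 1 point a gene, for the S100 members and for 5 lists of related genes. Filled points have an adjusted p under 0.05, red bars are medians, and squares are genes above background on none of the first or none of the last 4 arrays. The S100 members have a median of 0.11, and the epidermal differentiation complex has one of -0.32 with no called point to the right of 0.

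The probes whose courses were most like those of the 3 members with the widest range, among those called over time, are given as a description over 16 arrays. For S100A8 they were EML2, a microtubule-associated protein (r = 0.98), HNRPDL, an RNA-binding protein (r = 0.97), and PHLDB2 (r = 0.96), and 84 probes had an r over 0.9. For S100A2 they were BCKDK, the kinase of branched-chain ketoacid dehydrogenase (r = 0.93), NMT2, an N-myristoyltransferase (r = 0.92), and FAM96B (r = 0.92), with 7 probes over 0.9. By rank NMT2 was less alike (rho 0.47). For S100A9 they included CTSB (r = 0.94) and ERGIC1 (r = 0.94), with 19 probes over 0.9. The adjusted p-values and differences between windows of these probes rest on the same 16 arrays.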

How the data were processed

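MCF10A cells were profiled on 16 Illumina arrays, 1 for each time point. The authors deposited the intensity of each row on a linear, unnormalized scale, and beside it a detection p-value. They state quantile normalization across compared arrays for their own analysis, and the summary software is not given in the sources used here. From the detection p-values of the 19092 single-probe rows the level of the negative controls was derived for normexp background correction (offset 16), which was followed by quantile normalization and log2 transformation (R 4.3.3, limma 3.58.1, matplotlib 3.10.9). The offset compresses the differences of dim probes. The 11957 probes above background (detection p under 0.05) on 3 or more arrays were tested. limma's moderated F-test used a natural cubic spline of time (3 degrees of freedom), and window contrasts used 1 fit of 4 windows, with an intensity trend. Adjusted p-values are Benjamini-Hochberg over all tested probes, called under 0.05. Ratios against a window not above background are bounds, set at the lowest detected intensity of each array. The number of arrays limits the precision. The scripts were tested on simulated data.

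The members and the 5 gene lists were chosen with earlier results of these data known. Named genes are all members, the 3 genes of each list with the largest change between the first and last windows among probes called by both tests (the brightest probe of a gene), and the 3 probes most alike to 3 members. Some items that this rule or the marker lists name are not reported here. S100A3, CD14 and the other markers fall outside this rule and were named after their values were seen. Symbols are those of the file. Promoter motifs were searched in the RefSeq promoter table, which held all 10 members.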

Additional observations from a re-analysis of the deposited data

Results flagged for a closer look

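Each of the 9 tested S100 probes was checked in each of the 4 windows for an array that stood apart from the other 3, which makes 36 checks, and chance flags about 1 in 20. Of these, 2 stood apart. S100A10 at 36 hours was 15.79 log2 units, below the other arrays of 36 to 45 hours. S100A14 at 21 hours was 13.73, above the other arrays of 12 to 21 hours and below all of 36 to 45 hours.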

How the results depend on the processing

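Over 1161 values of single S100 genes under other settings, 1064 kept their direction and their side of the threshold, 52 were no longer called, 22 became called and 23 changed sign. The time-dependence of S100A2, S100A8, S100A9 and S100A14 was called under all 27 settings run for it, and that of S100A4 under 26, the exception being a straight line (limma adjusted p = 0.933). That of S100A6 was lost under 5 of its settings. Leaving out each array in turn gave 5 to 6 S100 probes called over time, 4 to 6 called between the first and last windows, 3 to 6 between the first and second, 0 between the middle windows and 3 between the last windows. With only the 8 arrays compared in the fit, the counts were 3 from first to last, 3 from first to second and 1 between the middle windows. Median scaling gave 1 between the middle windows (S100A4), and cyclic loess gave 5 between the last windows, adding S100A6 and S100A10. Without a filter S100A7 was tested too, and 7 probes were called over time. The call of S100A7 rests on intensities mostly within the background and is a description.

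The cause of the changes of sign was not tested. S100A6 between the last windows turned to 0.14 with cyclic loess (limma adjusted p = 0.0258), and no other value that changed sign was called under either setting. With cyclic loess S100A10 in the second window was -0.0183, and S100A6 between the middle windows was -0.0035. With median scaling the middle windows gave 0.0865 for S100A10, 0.13 for S100A14 and 0.12 for S100A2, the first and second gave 0.0848 for S100A16, the first and last gave 0.0715 for S100A16 and 0.0026 for S100A4, and the last windows gave -0.10 for S100A4. With the deposited intensities, an alternative chosen after seeing the data, the middle windows gave 0.0634 for S100A10, 0.10 for S100A14 and 0.10 for S100A2, the first and second gave 0.03 for S100A16, and the last gave -0.13 for S100A4. Comparing 0 and 3 with 42 and 45 hours gave 0.17 for S100A16. Leaving out 1 array moved S100A14 between the middle windows over -0.0544 to 0.0277 (above 0 without 24 hours), S100A16 in the second window over -0.1873 to 0.071 (above 0 without 6 or 9 hours), S100A16 from first to last over -0.1739 to 0.0844 (above 0 without 6, 9 or 45 hours) and S100A16 between the last windows over -0.10 to 0.0033 (without 45 hours). A chip as a block was not run, since no source names one. No paired analysis was possible because no 2 groups share replicates. S100A7 is limited by its signal over background.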
